A study of Mus musculus with 6 samples.

Results

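The collagen chain genes are the protein-coding genes whose names have the form Col, a type number, a and a chain number. The deposited table, which lists 54532 genes, held 44 of them, and they were taken by name alone. They were compared between CRISPR Y-KO and CRISPR Y-Scr cells of MB49, a mouse bladder cancer line that started from a male animal. Each group had 3 libraries. All 6 were listed under batch 1, but their titles name no batch. Y-Scr cells carried a non-targeting guide RNA, and the sources used here do not give the Y-KO guide. Both groups went through transduction, sorting on the red fluorescent protein tRFP and growth from single cells. Each group may therefore stand for 1 clone or for several, and clone and edit cannot be told apart. The labels call the material cells and also a tumor, and do not say whether the replicates were separate cultures, so p-values measure only the spread between these libraries, which may be technical.

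Collagens are the main fibrous proteins of the extracellular matrix. Chains made by the same gene or by different genes wind into a triple helix, whose regular glycine repeat is written in long, GC-rich coding sequences. Type IV chains form the sheet of the basement membrane under epithelia and around vessels. Fibrillar chains build the rope-like fibrils of connective tissue, type VI builds beaded microfilaments around cells, and the other types coat fibrils, anchor membranes or span the cell surface. In the bladder wall most fibrillar collagen is made by fibroblasts, while carcinoma cells often make basement membrane chains themselves.

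The libraries held 15698510 to 24633158 counts. The Y genes Ddx3y, Eif2s3y, Kdm5d and Uty were present in each Y-Scr library (summed level 370.1 to 431 CPM, counts scaled to library size) and had 0 counts in each Y-KO library, which matches the labels. The keratin genes Krt8 and Krt18 were abundant (mean 2188 and 1326 CPM in Y-Scr, 2816 and 1351 CPM in Y-KO). Of 14 urothelial or epithelial markers only 4 had enough counts to be tested. Of these 4, Krt8 and Krt19 (1.42 and 7.53 CPM) were higher in Y-KO, beside 20.7% of all tested genes. Epcam, Cdh1, Krt20 and Upk3a had 0 counts in all 6 libraries. Krt5, Krt7, Upk1a, Upk1b, Upk2 and Trp63 had at most 8 counts in any library. The list summed to 3352 to 3721 CPM in Y-Scr and 4018 to 4326 CPM in Y-KO. Of 10 fibroblast markers, Pdgfrb, Fap and Tcf21 were at 0 throughout. The summed fibroblast list stood at 10.7 to 12.2 CPM in Y-Scr and 16.5 to 18.7 CPM in Y-KO, most of it Pdgfra, which was higher in Y-KO. Of 10 leukocyte markers 5 were at 0, among them Ptprc. The list summed to 107.9 to 115.8 CPM in Y-Scr and 95.4 to 101.3 CPM in Y-KO, nearly all Cd68. Of its 2 tested genes, Cd68 (109.9 and 97.6 CPM) was lower in Y-KO, beside 23.0% of all tested genes. Endothelial and erythroid lists summed to at most 1.45 and 0.397 CPM. In bulk RNA, fewer cells of a type and less RNA per cell cannot be told apart.

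MB49 cells expressed a narrow set of collagen genes, led by Col18a1, Col4a1, Col4a2 and Col8a1. Of the 44 members, 17 passed the expression filter, 22 had counts but were below it, and 5 had 0 counts everywhere. Together the members made up 0.172% to 0.189% of counts in Y-Scr and 0.250% to 0.268% in Y-KO. Their summed level was 1861 ± 78.3 CPM (SD, n = 3) in Y-Scr and 2528 ± 79.3 CPM in Y-KO, a ratio of 1.36. Col18a1 alone gave 48.2% of this increase, Col4a1 28.2% and Col4a2 13.4%. Without Col18a1 the ratio was 1.30. The make-up of the summed level differed between groups. Col18a1 held 37.8% to 40.4% of the members' CPM in Y-Scr and 41.2% to 41.7% in Y-KO, while Col8a1 held 11.5% to 12.25% in Y-Scr and 7.75% to 8.26% in Y-KO. The share of Col5a3 was 2.71% to 2.78% in Y-Scr and 1.56% to 1.76% in Y-KO. Col6a1 held 2.73% to 2.90% in Y-Scr and 3.69% to 4.27% in Y-KO, and Col6a2 0.949% to 1.11% and 1.57% to 1.65%. Groups did not overlap in any of these 5 shares.

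In edgeR's quasi-likelihood test with Benjamini-Hochberg adjustment over all 12907 tested genes (threshold 0.05), 8 of the 17 tested members were higher in Y-KO and 1 was lower. Over all tested genes 20.7% were called higher and 23.0% lower. The members' median log2 fold change, Y-KO minus Y-Scr, was 0.29, against -0.01 over all tested genes. The groups did not overlap for 8 members that were higher and 2 that were lower, against 25.4% and 27.5% of all tested genes. By class, 2 of 3 tested basement membrane chains rose, 2 of 2 beaded chains rose, 1 of 5 fibrillar chains rose and 1 fell, and 3 of 7 others rose. Members that were tested had passed a filter on counts, so these counts do not describe all 44.

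**Figure D1:**
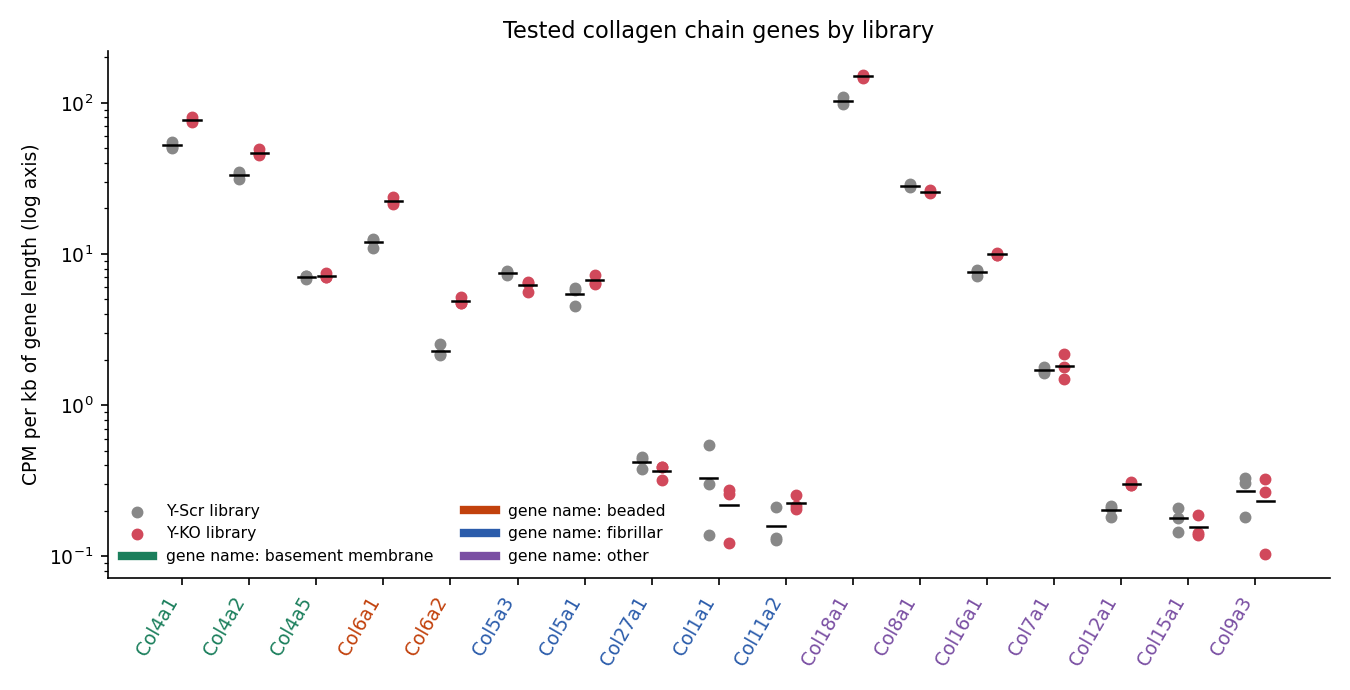
Level of each tested collagen chain gene in each library, as CPM per kb of deposited gene length on a log axis; points are libraries, bars are group means (n = 3), and gene names are coloured by class. Col18a1, Col4a1, Col4a2, Col6a1 and Col6a2 lie higher in every Y-KO library than in any Y-Scr library, while Col4a5 overlaps between groups.

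The type IV genes moved as a pair. Col4a1 (ENSMUSG00000031502, chromosome 8, 11198423 to 11312826, minus strand, GRCm38) encodes the most widespread chain of basement membrane. It stood at 413, 373 and 382.5 CPM in the Y-Scr libraries and at 573, 603 and 556 CPM in the Y-KO libraries. The groups did not overlap, and the log2 change of 0.57 ± 0.06 (SE) passed edgeR's test (adjusted p = 7.6e-07). Its partner chain gene Col4a2 (ENSMUSG00000031503, chromosome 8, 11312805 to 11449287, plus strand) stood at 231, 208 and 224 CPM in Y-Scr and 303.5, 329.7 and 298 CPM in Y-KO. It rose by 0.49 ± 0.07 (adjusted p = 6.7e-06, edgeR), again with no overlap. Per kb of deposited gene length, Col4a1 was 1.57 ± 0.04 times Col4a2 in Y-Scr and 1.65 ± 0.03 times in Y-KO. Each of the 3 Y-KO ratios was above each of the 3 Y-Scr ratios (1.62 to 1.67 against 1.52 to 1.59).

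These genes lie head to head. Their annotated first exons overlap by 22 bases, from 11312805 to 11312826. The stretch that holds both annotated start sites is shown because it is where the 2 co-changed genes meet, with the overlap in capitals (RefSeq promoter table, GRCm38.p6, plus strand, chr8:11312801-11312830):
Col4a1 and Col4a2 start sites: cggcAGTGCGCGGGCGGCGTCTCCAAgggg
The overlap holds the GC box GGGCGG. The 300-base RefSeq windows around the Col4a1 and Col4a2 starts (250 bases before and 50 after) had GC contents of 74.0% and 73.7%, against a median of 52.7% over 32851 windows. Each held GGGCGG (in 35.7% of all windows, both strands), CCAAT (37.4%) and CCCTCCCC (10.8%), and neither held TATAAA (13.6%). These letter matches describe the windows and were not tied to any factor.

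Of the other type IV genes only Col4a5 was tested. Col4a5 (chromosome X), a chain of kidney and other specialised membranes, stood at 48.3, 48.3 and 46.1 CPM in Y-Scr and 50.3, 47.4 and 47.1 CPM in Y-KO. Its change of 0.02 ± 0.08 (SE) did not pass the test (adjusted p = 0.835, edgeR). The ratio of Col4a1 to Col4a5 per kb went from 7.38 ± 0.38 (SD, n = 3) to 10.8 ± 0.617. Col4a6 had 5 and 11 counts over the Y-Scr and Y-KO libraries, Col4a4 6 and 12, and Col4a3 3 and 0. All 3 were below the filter, so among type IV chains only Col4a1, Col4a2 and Col4a5 were measured well.

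The type VI pair had the largest changes of any tested member. Col6a1 (ENSMUSG00000001119, chromosome 10, 76708792 to 76726168, minus strand) stood at 55.2, 48.3 and 54.3 CPM in Y-Scr and 93.35, 96.5 and 105 CPM in Y-KO. It rose by 0.90 ± 0.08 (SE; adjusted p = 2.0e-08, edgeR). Col6a2 (ENSMUSG00000020241, chromosome 10, 76595762 to 76623630, minus strand) stood at 18.03, 17.97 and 21.2 CPM in Y-Scr and 39.5, 43.1 and 39.25 CPM in Y-KO, with no overlap. It rose by 1.09 ± 0.10 (adjusted p = 4.1e-08, edgeR). Both genes encode short chains of the beaded filament, which is completed by a longer chain from Col6a3 or its relatives. RNA for that longer chain was nearly missing: Col6a3 had 24 counts over Y-Scr and 38 over Y-KO, Col6a4 8 and 3, Col6a5 7 and 0, and Col6a6 3 and 0. Per kb of deposited length Col6a1 was 5.27 ± 0.491 times Col6a2 in Y-Scr and 4.61 ± 0.423 times in Y-KO, ranges that overlap. With coding length the ratios were 2.80 ± 0.26 and 2.45 ± 0.224, because the deposited length of Col6a2 (8326 bases) counts all its exons and its longest coding sequence has 3102 bases.

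Fibrillar genes were low and moved in different directions. Col5a1 and Col5a3 encode chains of type V, which sets fibril diameter. Col5a1 stood at 49.1, 38.5 and 50.9 CPM in Y-Scr and 54.4, 62.05 and 53.6 CPM in Y-KO. It rose by 0.29 ± 0.10 (SE; adjusted p = 0.0234, edgeR), but Y-Scr 2 was its lowest library and Y-KO 2 its highest. Leaving out Y-Scr 2 ended the call (0.19, edgeR adjusted p = 0.124), as did leaving out Y-KO 2 (0.23, adjusted p = 0.127). Col5a3 stood at 51.4, 49.2 and 52.9 CPM in Y-Scr and 44.15, 44.0 and 38.2 CPM in Y-KO. It fell by 0.28 ± 0.09 (adjusted p = 0.012, edgeR) with no overlap, and lost its call without Y-KO 3 (-0.21, adjusted p = 0.0921). The ratio of Col5a1 to Col5a3 per kb was 0.722 ± 0.08 in Y-Scr and 1.08 ± 0.08 in Y-KO, with no overlap between groups. Col5a2, the remaining chain of the common type V molecule, had 0 counts in all 6 libraries, where 3 counts would have been 0.125 to 0.190 CPM.

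Type I collagen, the bulk protein of scar and bone, was close to absent. Col1a1 stood at 1.96, 0.907 and 3.59 CPM in Y-Scr and 0.806, 1.805 and 1.70 CPM in Y-KO, and Y-Scr 3 held 86 of the 132 Y-Scr counts. Its change of -0.63 ± 0.44 (SE; adjusted p = 0.271, edgeR) did not pass, and without Y-Scr 3 the value was -0.00. Col1a2 had 15 counts over Y-Scr, 12 of them in Y-Scr 3, and 6 over Y-KO. Col3a1, the main chain of loose connective tissue, had 11 and 25 counts, below the filter. The cartilage gene Col11a2 (0.52 ± 0.37, adjusted p = 0.277) and Col27a1 (-0.20 ± 0.19, adjusted p = 0.421) did not pass either. Col2a1 had 6 and 8 counts, Col11a1 0 and 2, and Col24a1 0 everywhere.

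Among the other types, Col18a1 was the most abundant member by CPM and per kb. It encodes a basement membrane proteoglycan core whose end fragment is endostatin (ENSMUSG00000001435, chromosome 10, 77052178 to 77166548, minus strand). It stood at 718.5, 689 and 772 CPM in Y-Scr and 1043, 1076 and 1025 CPM in Y-KO. The groups were well apart, and Col18a1 rose by 0.53 ± 0.06 (SE; adjusted p = 1.4e-06, edgeR). Its tail overlaps that of Slc19a1, on the opposite strand, by 8825 bases; Slc19a1 had 4416 counts in all. Its relative Col15a1, with 62 and 52 counts, stood at -0.17 ± 0.39 (adjusted p = 0.752).

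Col16a1, a fibril-associated chain, stood at 53.2, 48.3 and 51.7 CPM in Y-Scr and 68.3, 66.5 and 66.4 CPM in Y-KO. It rose by 0.39 ± 0.08 (SE; adjusted p = 0.00034, edgeR). Col12a1, also fibril-associated, stood at 2.78, 3.27 and 3.175 CPM in Y-Scr and 4.51, 4.73 and 4.475 CPM in Y-KO. It rose by 0.57 ± 0.22 (adjusted p = 0.0399, edgeR), a call at the edge that was lost under 12 of 18 alternative settings, among them each of the 6 fits that left out a library (adjusted p between 0.0507 and 0.103). Groups did not overlap for either gene.

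Col8a1, a short-chain network collagen of vessel and corneal membranes, did not follow. It stood at 228, 217 and 219.8 CPM in Y-Scr and 207, 202.5 and 197 CPM in Y-KO, so every Y-KO library was below every Y-Scr library. Its change of -0.13 ± 0.06 (SE) did not pass (adjusted p = 0.0796, edgeR). Its partner Col8a2 had 1 count in all. Col7a1, the anchoring fibril chain that ties epidermis to dermis, stood at 16.8, 17.3 and 18.4 CPM in Y-Scr and 18.4, 22.4 and 15.4 CPM in Y-KO, with a change of 0.10 ± 0.13 (adjusted p = 0.573). Col9a3 (-0.26 ± 0.46, adjusted p = 0.684) did not pass. Of the transmembrane chains, Col17a1 had 22 and 19 counts, Col23a1 8 and 7, Col25a1 1 and 0, and Col13a1 0. Col20a1 (31 and 16), Col22a1 (14 and 25), Col14a1 (5 and 6), Col9a2 (0 and 3), Col10a1 (0 and 3), Col19a1 (1 and 0) and Col26a1 (1 and 0) were below the filter, and Col9a1 and Col28a1 had 0 counts.

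Per kb of deposited length, the mean order in Y-Scr was Col18a1 (103.5 ± 6.02 CPM per kb), Col4a1 (52.2 ± 2.79), Col4a2 (33.4 ± 1.80), Col8a1 (28.3 ± 0.761) and Col6a1 (12.0 ± 0.858). Col16a1 (7.57 ± 0.37), Col5a3 (7.515 ± 0.274) and Col4a5 (7.08 ± 0.189) lay within their spreads or next to them, so their order is not resolved. In Y-KO the first 4 kept their order, at 149 ± 3.69, 77.4 ± 3.20, 46.9 ± 2.57 and 25.8 ± 0.678 CPM per kb. Col6a1 (22.4 ± 1.36) came closer to Col8a1. All other tested members were at or below 9.94 CPM per kb in both groups.

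Collagen genes are long and GC-rich, and in these libraries both properties moved with the group. With all tested genes put in 5 equal bins by deposited gene length, the median change was -0.14 in the bin of short genes and 0.14 in that of long genes. In 5 bins by transcript GC content it ran from -0.12 to 0.10. The tested members had a median length of 6831 bases against 4000 over all tested genes. Their median GC content was 58.9% against 49.6%, and 13 of 17 were in the highest GC bin. In the bin of longest genes, 38.1% of all genes were called higher and 14.1% lower. Among 670 tested genes in the 2 bins of longest genes and the highest GC bin, 52.4% were called higher and 7.46% lower, with a median of 0.30. Of the 11 members among them, 5 were higher and 1 lower, with a median of 0.29. The share of collagen genes called higher there was thus near that of all genes of like length and GC content. Col6a1 and Col6a2, whose changes were the largest, were outside this set, as were Col12a1, Col8a1, Col4a5 and Col9a3.

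**Figure D2:**
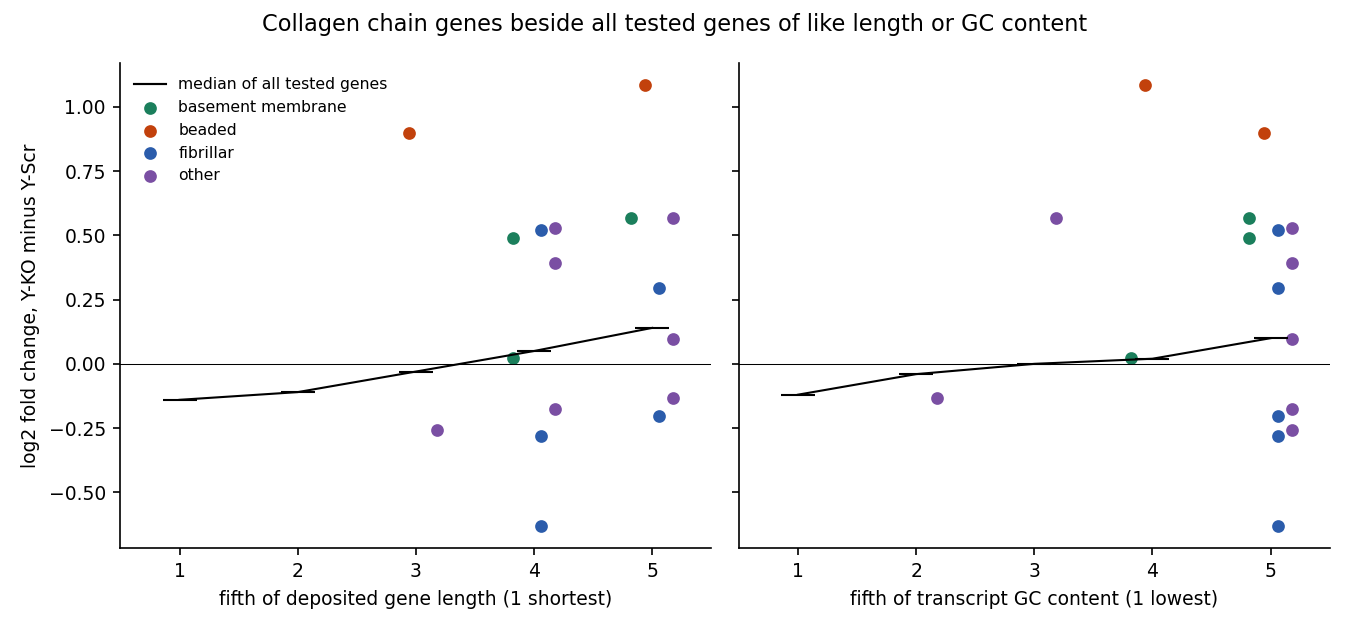
Log2 fold change of the 17 tested collagen chain genes (points, coloured by class) by bin of deposited gene length (left) and of transcript GC content (right), with 5 equal bins each, beside the median of all tested genes in each bin (black). The black line climbs from -0.14 to 0.14 with length and from -0.12 to 0.10 with GC content, and Col6a2 and Col6a1 (the topmost points) stand farthest above it.

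With each library's spline trend on length removed before the test, 6 members were higher and 2 lower (19.6% and 23.7% of all tested genes), with a median of 0.16. Col5a1 (0.16, adjusted p = 0.178) and Col12a1 (0.35, adjusted p = 0.219) lost their calls, and Col8a1 was called lower (-0.25, adjusted p = 0.00083). With trends on length and GC content both removed, 5 were higher and 4 lower (18.5% and 22.7% of all tested genes), with a median of -0.06. The 5 were Col6a2 (0.80 ± 0.09 SE, adjusted p = 3.6e-07), Col6a1 (0.75 ± 0.07, adjusted p = 9.3e-09), Col4a1 (0.25 ± 0.05, adjusted p = 0.00044), Col18a1 (0.17 ± 0.05, adjusted p = 0.00941) and Col4a2 (0.15 ± 0.05, adjusted p = 0.0244), all in edgeR. The type VI pair thus kept most of its change, while the changes of Col4a1, Col4a2 and Col18a1 were at most 0.25 on the log2 scale. Col16a1 went to 0.04 (adjusted p = 0.682) and Col5a1 to -0.06 (adjusted p = 0.631). The 4 lower members were Col5a3 (-0.64, adjusted p = 1.1e-06), Col8a1 (-0.24), Col27a1 (-0.66) and Col7a1 (-0.36). Such a correction also removes any real group difference that follows length or GC content, and which of the values is nearer to the cells was not tested.

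**Figure D3:**
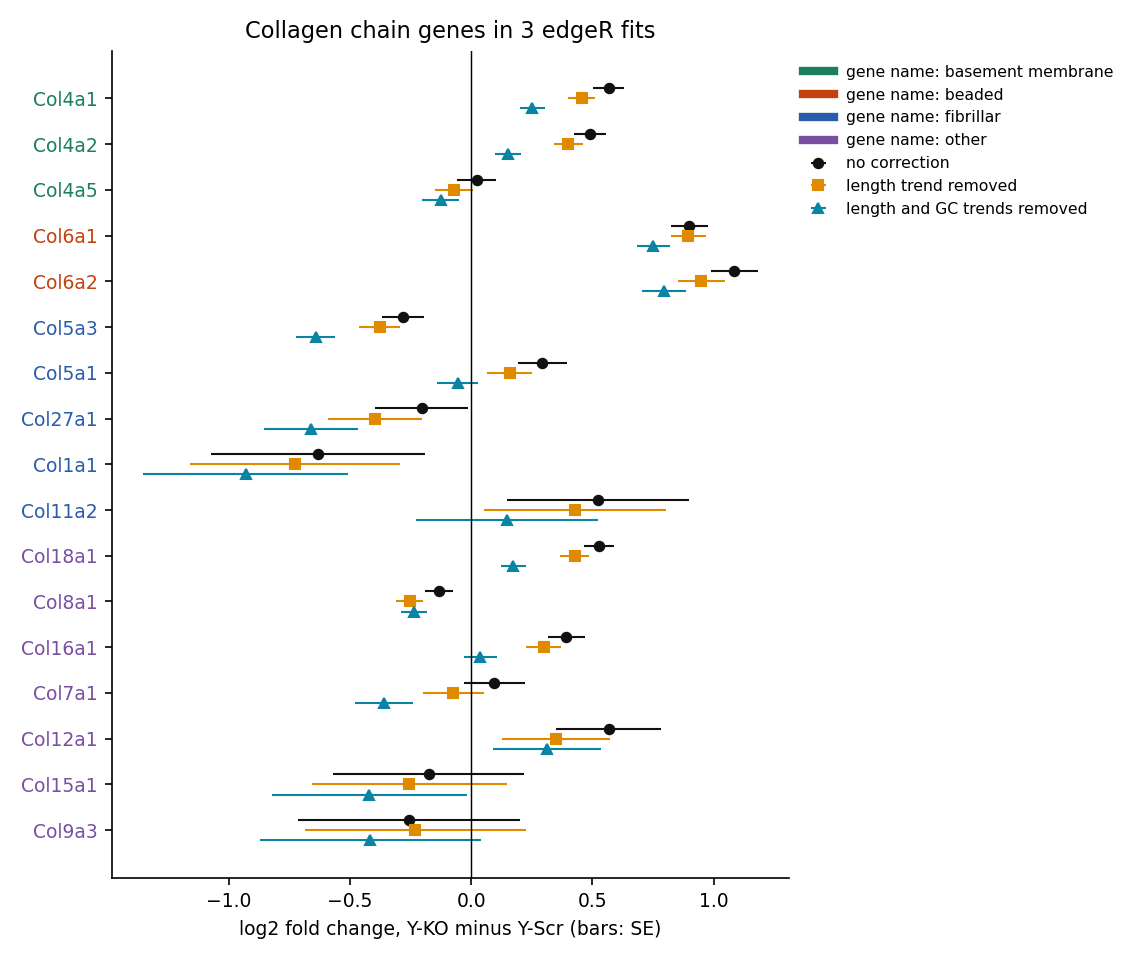
Log2 fold change (points) with its SE (bars) of each tested collagen chain gene in 3 edgeR fits, with no correction, with the length trend removed and with length and GC trends removed. Col6a1 and Col6a2 stay at 0.75 or above in all 3 fits, whereas Col16a1 goes from 0.39 to 0.04.

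The 3 members with high levels or large changes on chromosome 10 are neighbours. Col6a2 and Col6a1 are 85.2 kb apart, and Col18a1 starts 326 kb beyond Col6a1, so all 3 lie within 571 kb. Of 16 other tested genes within 500 kb of this stretch, 9 were higher and 3 lower in Y-KO. Over all tested genes 20.7% were higher and 23.0% lower. The neighbours' median was 0.40, against 0.03 over the 612 tested genes of chromosome 10. The neighbours' values were not corrected for length or GC content. Pcnt, a centrosome scaffold gene (0.79 ± 0.09 SE), Mcm3ap (0.45 ± 0.09) and the sterol synthesis gene Lss (0.41 ± 0.08) lie on the Col6a2 side. Slc19a1, a folate carrier gene (0.49 ± 0.09), and the RNA editing gene Adarb1 (0.42 ± 0.11) lie near Col18a1. The exceptions stood at the edges, Prmt2 at -0.35 ± 0.07, Pttg1ip at -0.25 ± 0.06 and Ube2g2 at -0.58 ± 0.07. Pcbp3, between Col6a1 and Col18a1 (-1.46 ± 0.60), Gm10941 (-0.35 ± 0.36), Pofut2 (-0.01 ± 0.08) and Sumo3 (0.16 ± 0.07) did not pass. The neighbours were chosen by distance after the members' values were seen. Col6a2 and Col6a1 were above all 16. By contrast, of 9 tested neighbours of Col4a1 and Col4a2, 2 were higher and 4 lower, with a median of -0.23. The part of the neighbourhood in the collagen changes was not tested.

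**Figure D4:**
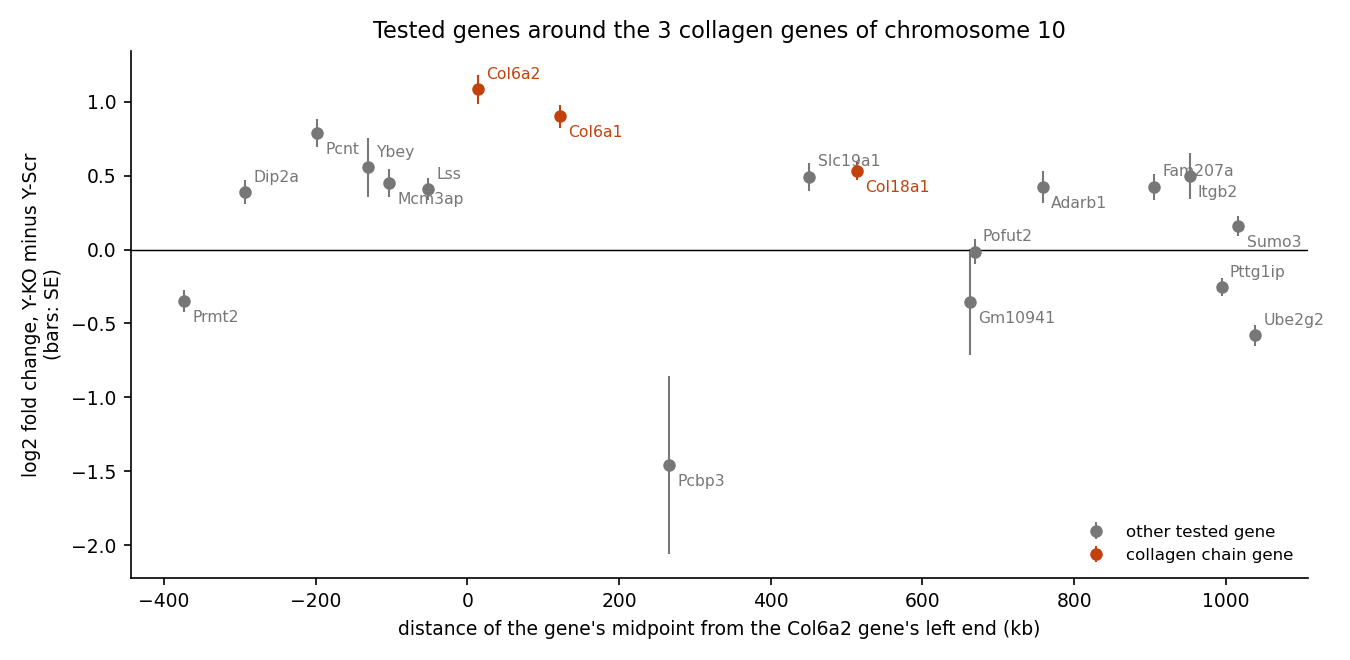
Log2 fold change with SE of the 3 collagen genes (orange) and the 16 other tested genes (grey) within 500 kb of them on chromosome 10, by distance of each gene's midpoint from the left end of Col6a2. Col6a2 (1.09) and Col6a1 (0.90) are the highest points. Of the 16 grey genes 9 were called higher, against 20.7% of all tested genes.

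The upstream sequences of these 3 neighbours are shown to set side by side the promoters of genes that rose together. Each is the part of the outermost RefSeq promoter window that lies before the gene's first GENCODE exon, on the minus strand of GRCm38, with matches on either strand in capitals. The motifs searched, each counted by itself, were the GC box GGGCGG, the CCAAT box, the AP-1 sequence TGACTCA, the C-rich run CCCTCCCC and the TATA box sequence TATAAA. They come from chr10:76726169-76726294, chr10:76623631-76623880 and chr10:77166549-77166780.
Col6a1: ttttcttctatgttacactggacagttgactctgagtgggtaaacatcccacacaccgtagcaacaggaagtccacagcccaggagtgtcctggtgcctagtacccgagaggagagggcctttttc
Col6a2: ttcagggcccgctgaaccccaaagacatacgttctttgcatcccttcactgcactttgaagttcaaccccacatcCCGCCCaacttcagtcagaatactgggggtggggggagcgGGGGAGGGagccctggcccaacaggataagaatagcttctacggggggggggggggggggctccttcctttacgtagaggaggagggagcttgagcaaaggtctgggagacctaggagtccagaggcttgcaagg
Col18a1: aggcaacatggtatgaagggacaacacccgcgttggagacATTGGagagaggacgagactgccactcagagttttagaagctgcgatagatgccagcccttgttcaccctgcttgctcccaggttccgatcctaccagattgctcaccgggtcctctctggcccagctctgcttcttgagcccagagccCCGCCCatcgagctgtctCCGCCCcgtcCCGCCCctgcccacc
The Col18a1 stretch held 3 GC boxes and 1 CCAAT match, the Col6a2 stretch 1 GC box and 1 CCCTCCCC match, and the Col6a1 stretch none of the 5 motifs. These counts are not like for like. The Col18a1 and Col6a2 stretches had 232 and 250 bases, and the Col6a1 stretch only 126, leaving out the rest of its window. In its whole 300-base window Col6a1 had 1 match to the AP-1 sequence (5.2% of all windows hold one) and 2 to CCCTCCCC (10.8%). No other member among the 35 with a window had the AP-1 sequence. CCCTCCCC was also in both whole windows of Col6a2 (2 and 1 matches) and in neither of Col18a1. The inner windows differed from the outermost ones shown: that of Col18a1 held none of the 5 motifs, and that of Col6a2 held 3 GC boxes. Which start these cells used was not tested. No motif was shared by all 3 stretches, which follows from the Col6a1 stretch holding none.

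The genes that modify, fold, export, cross-link, bind or break down collagen were counted in 7 lists. Of their 86 genes 58 were tested, 13 were higher and 9 lower, with a median of 0.03. Over all tested genes 20.7% were higher and 23.0% lower, so the number called higher was near the background. The lists were not tested against the chains. Of 14 tested genes of prolyl and lysyl modification, 3 rose and 1 fell (median 0.03), a share of rises near the 20.7% of all tested genes. The 3 were the prolyl 3-hydroxylase genes P3h2 (15.8 ± 0.605 CPM in Y-Scr, 27.45 ± 0.584 in Y-KO, log2 change 0.79 ± 0.10 SE, edgeR adjusted p = 2.9e-06), P3h3 (0.69 ± 0.13) and P3h1 (0.31 ± 0.07). Ppib, which encodes the cyclophilin that works with P3h1, fell by 0.38 ± 0.07. The prolyl 4-hydroxylase genes, whose products stabilise the helix, did not pass: P4ha1 stood at 0.06 ± 0.06 and P4ha2 at -0.20 ± 0.42. The lysyl hydroxylase genes Plod1 (-0.18 ± 0.09) and Plod2 (0.06 ± 0.06) did not pass either. With the length trend removed, Plod1 was called lower (-0.28, edgeR adjusted p = 0.0123). With length and GC trends removed, Plod1 stayed lower (-0.36, edgeR adjusted p = 0.00117) and P4ha1 was called higher (0.14, adjusted p = 0.0346). P4ha2 and Plod2 were called in neither fit.

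In folding and export, 3 of 13 tested genes rose and 1 fell (median 0.08), again with a share of rises near 20.7%. Sec24d, a coat protein gene needed to carry procollagen out of the endoplasmic reticulum, stood at 45.7 ± 4.44 CPM in Y-Scr and 71.0 ± 3.77 CPM in Y-KO, a rise of 0.64 ± 0.08 (SE; edgeR adjusted p = 6.7e-06). Creb3l2, a transcription factor gene of secretory load, rose by 0.54 ± 0.12. Mia3, the procollagen export receptor gene, rose by 0.32 ± 0.09 and lost its call without Y-KO 2 (0.25, adjusted p = 0.0531). Hspa5, the general chaperone gene, fell by 0.44 ± 0.06. The collagen-specific chaperone gene Serpinh1 stood at 782 ± 41.8 CPM in Y-Scr and 765 ± 28.7 CPM in Y-KO, a change of -0.03 ± 0.06 (adjusted p = 0.716, edgeR).

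Propeptide removal had 0 calls among 4 tested genes in edgeR, DESeq2 and limma-voom, and 0 at an unadjusted p under 0.05 in edgeR (median -0.05); with length and GC trends removed, 2 were lower. In cross-linking, 1 of 4 rose and 1 fell (median -0.01), beside 20.7% higher and 23.0% lower over all tested genes. Pxdn, a peroxidase gene whose product cross-links type IV collagen, stood at 196 ± 18.9 CPM in Y-Scr and 242 ± 3.17 CPM in Y-KO. It rose by 0.30 ± 0.07 (SE; adjusted p = 0.00146, edgeR), and stood at 0.04 (adjusted p = 0.561) with length and GC trends removed. Loxl4, of the lysyl oxidase family, fell by 0.18 ± 0.07 (adjusted p = 0.0416) and lost its call under 12 settings. Lox itself had 0 and 2 counts.

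Of 7 tested collagen receptor genes, 1 rose and 2 fell (median -0.13), beside 20.7% higher and 23.0% lower over all tested genes. Ddr1, a receptor tyrosine kinase gene for collagen on epithelial cells, stood at 46.6 ± 2.31 CPM in Y-Scr and 62.3 ± 4.44 CPM in Y-KO, a rise of 0.42 ± 0.08 (SE; edgeR adjusted p = 0.00039). Ddr2, the mesenchymal relative, was more abundant, at 337 ± 17.5 and 308 ± 15.7 CPM, and did not pass (-0.13 ± 0.06). It was called lower with the length trend removed (-0.28, edgeR adjusted p = 0.00036) and with length and GC trends removed (-0.24, adjusted p = 0.00085). Cd44 fell by 0.49 ± 0.06. Itgb1, the shared chain of collagen-binding integrins, fell by 0.17 ± 0.06 (adjusted p = 0.027, edgeR) and lost its call under 9 of 18 settings. These were library totals (-0.11, adjusted p = 0.129), length and GC trends removed (-0.07, 0.299), the replicate block (0.106), that block with the length trend removed (0.0774), and leaving out Y-Scr 1, Y-Scr 2 or any Y-KO library.

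Among 10 tested partners of fibrils and basement membrane, 4 rose and 1 fell (median 0.33), beside 20.7% higher and 23.0% lower over all tested genes. Nid1, which encodes nidogen, the link between laminin and type IV collagen, stood at 274 ± 24.5 CPM in Y-Scr and 392 ± 36.6 CPM in Y-KO, a rise of 0.52 ± 0.08 (SE; edgeR adjusted p = 2.5e-05). Thbs1, which encodes thrombospondin, rose by 0.67 ± 0.11. The perlecan gene Hspg2 rose by 0.72 ± 0.15 (adjusted p = 0.00897). Its call ended when Y-Scr 2 was left out (0.68, edgeR adjusted p = 0.0555) and with length and GC trends removed (0.22, adjusted p = 0.0683). Tnxb rose by 0.42 ± 0.10 and stood at -0.05 with both trends removed. Tgfbi, named after its values were seen as the 1 that fell, stood at -0.45 ± 0.18 (edgeR adjusted p = 0.0488). It lost its call under 14 of 18 settings, among them DESeq2 (adjusted p = 0.0791), the replicate block (0.0694) and each of the 6 fits that left out a library (up to 0.181), so that the list then had 0 lower genes.

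Collagen breakdown had 1 of 6 tested genes higher and 3 lower (median -0.28), beside 20.7% higher and 23.0% lower over all tested genes. Mmp13, a collagenase gene that cuts fibrillar collagen, stood at 11.6 ± 0.916 CPM in Y-Scr and 0.902 ± 0.470 CPM in Y-KO, a log2 change of -3.70 ± 0.26 (SE; edgeR adjusted p = 1.2e-09). The gelatinase gene Mmp9 fell by 0.45 ± 0.12. Mmp3 fell by 1.24 ± 0.46 (adjusted p = 0.0338, edgeR) with overlapping groups, and its call ended under 8 of 18 settings, among them limma-voom (adjusted p = 0.0514), length and GC trends removed (0.0784), and when Y-Scr 1 was left out (edgeR adjusted p = 0.0809), or Y-Scr 2 (0.188), Y-KO 2 (0.15) or Y-KO 3 (0.103). Mmp15, a membrane-bound protease gene, had 0, 0 and 0 counts in Y-Scr and 20, 30 and 20 in Y-KO, at least 25.1-fold higher against 3 counts over the Y-Scr group. Mmp14, the membrane-bound collagenase gene, stood at 171 ± 10.4 and 163 ± 17.0 CPM and did not pass (-0.07 ± 0.07). It was called lower with length and GC trends removed (-0.25, edgeR adjusted p = 0.00308), but not with the length trend alone removed (-0.14, adjusted p = 0.11). Mmp2, singled out after its values were seen, had 14 counts over Y-Scr and 56 over Y-KO and was below the filter.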

How the data were processed

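RNA of 6 MB49 libraries (3 Y-Scr, 3 Y-KO) was measured by poly-A sequencing with a stranded kit, per the labels' protocols. The authors deposited whole-number read counts per gene with no normalization, together with gene coordinates and lengths. Per the submitters' processing notes, GRCm39 and mm39 were named as builds, and STAR 2.5.2b, featureCounts 1.5.3, Trimmomatic 0.39 and DESeq2 as tools. The deposited coordinates matched GENCODE vM21 of GRCm38 for 98.3% of 54409 shared genes, so positions are given as GRCm38. The deposited length equalled the union of annotated exons for 98.0%. The sources used here do not give the counting's strand setting, so reads of overlapping genes on opposite strands could not be separated.

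Counts were tested with edgeR 4.0.16 (R 4.3.3), using filterByExpr, TMM factors and a robust quasi-likelihood fit on group alone. Standard errors are the log2 fold change over the square root of F. CPM values were scaled by TMM and are given as mean ± SD (n = 3). Trends on log length and GC content (longest GENCODE transcript) were natural splines with 4 degrees of freedom, entered as offsets. Alternatives were DESeq2 1.42.0, limma-voom (limma 3.58.1), scaling by upper quartile, relative log expression or totals, a block on replicate number, other filters (also to protein-coding genes), and each library left out. No 2 replicates were alike within counting noise (chi-square over its degrees of freedom, 3.44 to 14.8). On simulated counts for this comparison (12907 genes), 79% of 1.5-fold and 98% of 2-fold changes were recovered and 0.05% of unchanged genes were called. With a length trend simulated and left in, 2.76% of unchanged genes were called, and 0.07% once it was removed. The simulation gave every gene the same relative spread, changed only a small part of the genes and held no GC trend. Its rates need not hold for these libraries, and the fit with length and GC trends removed was not checked this way. Floors cover counting error only.

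The members and lists were chosen with earlier results of these data known. Values in every library are given for members past the threshold or with at least 10 CPM in either group, and pathway lists name up to 4 called genes with the smallest adjusted p plus 10 fixed genes. Neighbours within 500 kb and coding length were added after the data were seen. Promoter sequences are from RefSeq (GRCm38.p6), which had windows for 35 of the 44 members. Protein sequences were not used here.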

Additional observations from a re-analysis of the deposited data

How the results depend on the processing

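The number of members called higher was 5 with length and GC trends removed and stayed between 6 and 8 in every other fit. The number called lower was 2 with the length trend removed, 2 with that and the replicate block, 4 with length and GC trends removed, and 0 without Y-KO 3. Leaving out each library gave 6 to 7 higher and 0 to 1 lower members, and 13 to 15 higher and 5 to 12 lower pathway genes, the lowest without Y-KO 2 or Y-KO 3. The 19 lower pathway genes with length and GC trends removed compare with 9. In that fit 12 member or pathway genes changed sign: Col5a1 (-0.06), Col7a1 (-0.36), Agrn (-0.30) and Tnxb (-0.05), each called in 1 of the 2 fits, and 8 called in neither; the cause was not tested.

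Same-numbered libraries did not deviate together (correlations -0.06, -0.03 and -0.02), and no library correlated best with its own number, so the numbers were not taken as pairs. With the replicate block 4960 of all genes were called, against 5633, 7 members were higher and 1 lower, and 13 pathway genes were higher and 6 lower; only Col12a1 (0.57, adjusted p = 0.0643, edgeR) lost its call among members. With coding length in place of deposited length, a choice made after seeing the data, the ratio of Col4a1 to Col4a2 was 1.80 in Y-Scr and 1.90 in Y-KO, that of Col6a1 to Col6a2 2.80 and 2.45, that of Col5a1 to Col5a3 0.851 and 1.28, and that of Col4a1 to Col4a5 8.31 and 12.1. Lengths from RefSeq proteins were not run. Depth limits the 27 untested members, of which the most abundant had 62 counts in all.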

Other observations

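The tested neighbours within 500 kb of other members were counted the same way, beside 20.7% higher and 23.0% lower over all tested genes. Around Col16a1, 6 of 18 were higher and 3 lower (median 0.04), around Col5a1 5 of 11 and 1 (median 0.19), around Col5a3 7 of 24 and 4 (median 0.05), around Col12a1 1 of 4 and 2 (median -0.11), and around Col8a1 0 of 5 and 1 (median -0.03).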
